A study of Homo sapiens with 6 samples.

Results

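The chromosomal passenger complex and the activators of the Aurora kinases were followed in EJ, a long-established cell line from human bladder cancer, with and without knockdown of STIL, a centriole assembly protein. The 6 genes were taken by name from the 15953 genes of the expression tables: AURKB, INCENP, BIRC5 and CDCA8, which encode the 4 subunits of the complex, and TPX2 and BORA, which encode activators acting mainly on Aurora A. All 6 were measured in all libraries. The rule takes them by name and sets no threshold on a measured value, but they were proposed with earlier results of these data known.

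RNA-seq libraries were made from 3 samples of EJ cells carrying the control lentivirus (shNC) and 3 samples carrying the lentivirus that silences STIL (shSTIL). Both groups are the same line with a stably integrated vector, and no other allele, drug or time point was named. The sequence of the hairpin, and whether each line was 1 clone or a pool, are not given in the sources used here, and the names of the deposited tables write si where the sample labels write sh. Nothing in the labels says that the 3 samples of a group came from separate cultures, so the p-values measure only the spread between these samples.

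The libraries held 16214771 to 16901633 reads each. The log2 CPM is the base-2 logarithm of a gene's reads scaled to the normalised library size. Over the 11319 genes averaging 1 or more, it correlated at 0.9953 to 0.9973 within a group and at 0.9588 to 0.961 between the groups. STIL itself fell by 1.99 on the log2 scale (SE 0.05, n = 3 per group, limma adjusted p = 6.1e-12), with 272 to 284 reads in the shSTIL libraries and 1011 to 1114 in the controls. The keratins KRT8 (3806 to 6198 reads) and KRT18 (10049 to 10825 reads) were abundant, but the epithelial adhesion genes EPCAM (15 to 21 reads) and CDH1 (0 to 3 reads) and the urothelial keratins KRT5 and KRT20 (0 to 1 read each) were near 0, while VIM, a mesenchymal filament gene, had 15492 to 23924 reads. Of the 10 urothelial markers 9 were listed, with a summed level of 32.5 to 34.2 CPM in the controls and 32.7 to 33.8 in shSTIL, most of it from PPARG (302 to 405 reads) and FOXA1 (104 to 178 reads). KRT7 had 1345 to 2229 reads, and KRT19 was not listed. Of the simple keratins of an epithelial line, KRT7, KRT8 and KRT18 were thus present, and most markers of differentiated urothelium were near 0. The 4 mesenchymal markers summed to 1550 to 1573 CPM in the controls and 981 to 1003 in shSTIL, and their part in the results was not tested. Of the leukocyte markers only CD14 was listed (1 to 4 reads), and the endothelial markers reached at most 11 reads. Of the fibroblast markers only COL1A1 was listed (21 to 59 reads).

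The chromosomal passenger complex moves over the chromosomes during cell division. It first sits at centromeres, where it corrects faulty attachments of chromosomes to the spindle, and then moves to the central spindle, where it takes part in cytokinesis. Aurora B is its kinase, INCENP is the scaffold that binds and activates the kinase, and survivin (BIRC5) and borealin (CDCA8) bring the complex to chromatin. Aurora A is a related kinase of centrosomes and spindle poles. TPX2 binds and activates it on spindle microtubules, and Bora helps it to phosphorylate PLK1 before mitosis. The mRNAs of these genes are known to peak in G2 and mitosis in cycling cells.

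Many promoters active at that time carry a cell cycle homology region, a short element written TTTGAA or TTCGAA, together with CCAAT boxes. These words are shown here for the members that had a promoter window. Promoter windows reaching from 250 bases before to 50 bases after the start (RefSeq, GRCh38.p14) were present for 4 of the 6 members, AURKB, INCENP, CDCA8 and BORA. In the 30-base stretches below, capitals mark TTTGAA or TTCGAA in INCENP, CDCA8 and BORA and ATTGG, the CCAAT word read on the other strand, in AURKB, and the gene's own strand is written 5′ to 3′.
INCENP, chr11:62123989-62124018, plus strand: tgagccttcagtTTTGAAaatcatagtttt
CDCA8, chr1:37692481-37692510, plus strand: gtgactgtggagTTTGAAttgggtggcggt
BORA, chr13:72727734-72727763, plus strand: aggctgcgttgaTTTGAAtttggagccacg
BORA, chr13:72727787-72727816, plus strand: gaggagttgccaTTCGAAtttcctacgcgg
AURKB, chr17:8210361-8210390, minus strand: accagcgcccagATTGGggctagtgtgctg

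The element TTTGAA or TTCGAA, searched on both strands, was present in the windows of INCENP, CDCA8 and BORA. These letters were not found in the windows of AURKB, which reached upstream only to 8210475 and 8210499. Both windows end inside the GENCODE gene, whose 5′ end lies at 8210600. Sequence upstream of that end was not searched, so a lack of the element in the AURKB promoter is not shown. In INCENP it began at position -10 from the RefSeq start, in CDCA8 at -23 and in BORA at -177 and -124. The GENCODE 5′ ends of these genes lie at 62123973, 37692418 and 72727749. By these, the printed stretches of INCENP and CDCA8 and the second of BORA lie inside the gene, not upstream of it. CCAAT, or ATTGG on the other strand, was found in all 4 windows, 3 times each in INCENP and CDCA8 and 2 times in BORA. In AURKB the single ATTGG printed above lay at -153 or -129, depending on which of the RefSeq start sites is used. One ATTGG of CDCA8 shares a base with its TTTGAA. Among 27305 windows, 1 per gene, 16.6% held TTTGAA or TTCGAA, 35.7% held CCAAT and 6.58% held both. Among the 8207 windows of genes whose log2 CPM averaged 3 or more, the shares were 10.6%, 37.2% and 4.70%. The matches describe letters in a window and do not show that a factor binds there.

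In shSTIL cells, 4 of the 6 members were lower (AURKB, INCENP, BIRC5 and TPX2), none was higher, and CDCA8 and BORA did not pass the test. Across all genes, 47.1% passed the same test in either direction, 23.6% as lower and 23.5% as higher in shSTIL. INCENP and TPX2 fell to about 63.2% and 67.5% of the control level, whereas AURKB and BIRC5 fell to about 86.2% and 83.1%. The 4 called members had no overlap between the groups, a pattern (lower in all shSTIL libraries) held by 30.5% of all genes. These are values relative to the normalised library size of a bulk culture. In such a culture, fewer cells in division and less RNA per dividing cell cannot be told apart. A gene is called here a differentially expressed gene (DEG) when its limma p, adjusted over all 15953 genes by Benjamini-Hochberg, is under 0.01.

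**Figure D1:**
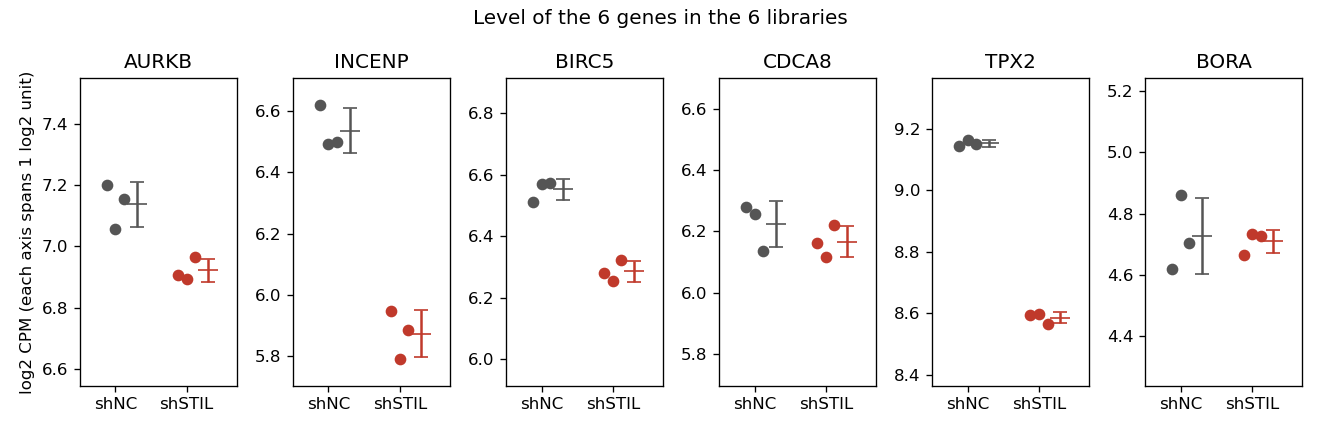
Level of each of the 6 genes in log2 CPM (vertical axis, spanning 1 log2 unit in each panel) in the 3 shNC libraries (grey points) and 3 shSTIL libraries (red points), with the mean and SD of each group beside the points. The points of INCENP, TPX2, BIRC5 and AURKB lie lower in shSTIL without overlap, and those of CDCA8 and BORA overlap.

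AURKB encodes the kinase of the complex and lies on the minus strand of chr17:8204733-8210600 (GRCh38, GENCODE 29), with 9 exons in its principal transcript. Its level was 7.20, 7.06 and 7.15 log2 CPM in shNC and 6.91, 6.89 and 6.96 in shSTIL, from 2045 to 2356 reads. Every shSTIL library was below every control library, but the lowest control (7.06) stood only a little above the highest shSTIL library (6.96). AURKB fell by 0.22 on the log2 scale (SE 0.04, 95% confidence interval -0.30 to -0.13, n = 3 per group, limma adjusted p = 0.00044). Of the 3759 DEGs that fell, 3392 fell by at least as much, so that AURKB was among the smaller falls. Its call depended on which libraries were kept and on how the variance was modelled. When 1 library was left out at a time, the limma adjusted p of AURKB lay between 0.00242 and 0.0284 and passed 0.01 only without shNC replicate 2, and it was 0.0184 when the variance was not modelled as a trend on the mean.

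INCENP, which encodes the scaffold, lies on the plus strand of chr11:62123973-62153163 with 18 exons in its principal transcript. It was measured at 6.62, 6.49 and 6.50 log2 CPM in the controls and at 5.95, 5.79 and 5.88 in shSTIL. The gap between the groups was wide against the spread within them, which was 0.07 (SD) in the controls and 0.08 in shSTIL. INCENP fell by 0.66 on the log2 scale (SE 0.05, interval -0.77 to -0.56, limma adjusted p = 8.19e-08), the largest fall of the 6 genes in this fit. Its reads went from 1436 to 1574 per control library to 951 to 1053 per shSTIL library.

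BIRC5 encodes survivin, the subunit that reads a histone mark at centromeres and that also belongs to the inhibitor of apoptosis family. It lies on the plus strand of chr17:78214186-78225636. Its values were 6.51, 6.57 and 6.57 log2 CPM in the controls and 6.28, 6.25 and 6.32 in shSTIL. The 6 values were tight within each group (SD 0.03 in both) and did not overlap. BIRC5 fell by 0.27 on the log2 scale (SE 0.04, interval -0.35 to -0.19, limma adjusted p = 3.28e-05), and 3099 of the 3759 falling DEGs fell by at least as much.

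CDCA8 encodes borealin, which joins survivin and INCENP in the targeting module of the complex, and lies on the plus strand of chr1:37692418-37709719. Its values were 6.28, 6.26 and 6.14 log2 CPM in the controls and 6.16, 6.12 and 6.22 in shSTIL. The third control library lay inside the range of the shSTIL libraries, so the groups overlapped. The difference of CDCA8 was -0.06 on the log2 scale (SE 0.05, interval -0.16 to 0.04, limma adjusted p = 0.315). The interval leaves room for a small fall but ends well short of the fall of INCENP.

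TPX2, the spindle assembly factor that activates Aurora A, lies on the plus strand of chr20:31739271-31801805. It drew the most reads of the 6 genes and had the least spread, at 9.14, 9.16 and 9.15 log2 CPM in the controls and 8.59, 8.60 and 8.56 in shSTIL. The groups stood far apart. TPX2 fell by 0.57 on the log2 scale (SE 0.03, interval -0.63 to -0.51, limma adjusted p = 2.01e-09), from between 9044 and 9354 in the controls to between 6424 and 6663 in shSTIL.

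BORA, the cofactor through which Aurora A acts on PLK1, lies on the plus strand of chr13:72727749-72756198 and drew the fewest reads of the 6 genes. Its values were 4.62, 4.86 and 4.70 log2 CPM in the controls and 4.67, 4.73 and 4.73 in shSTIL. All 3 shSTIL values fell inside the control range. The difference of BORA was -0.02 on the log2 scale (SE 0.07, interval -0.16 to 0.13, limma adjusted p = 0.835), and its sign turned under 3 of 15 other settings. BORA shares 1180 exon bases with DIS3, an RNA exonuclease gene on the opposite strand, and the strand setting of the counting is not given in the sources used here. DIS3, named for this overlap, rose by 0.45 on the log2 scale (SE 0.04, limma adjusted p = 5.24e-07), and the part of the shared bases in the value of BORA was not tested. BORA was also the only member whose estimated reads were not whole numbers. No other member shares exon bases with another annotated gene.

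With 3 libraries against 3, an exact two-sided permutation test has 20 labellings and cannot give a p below 0.1. AURKB, INCENP, BIRC5 and TPX2 each reached that smallest permutation p of 0.1, whereas the exact permutation p was 0.3 for CDCA8 and 0.9 for BORA.

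**Figure D2:**
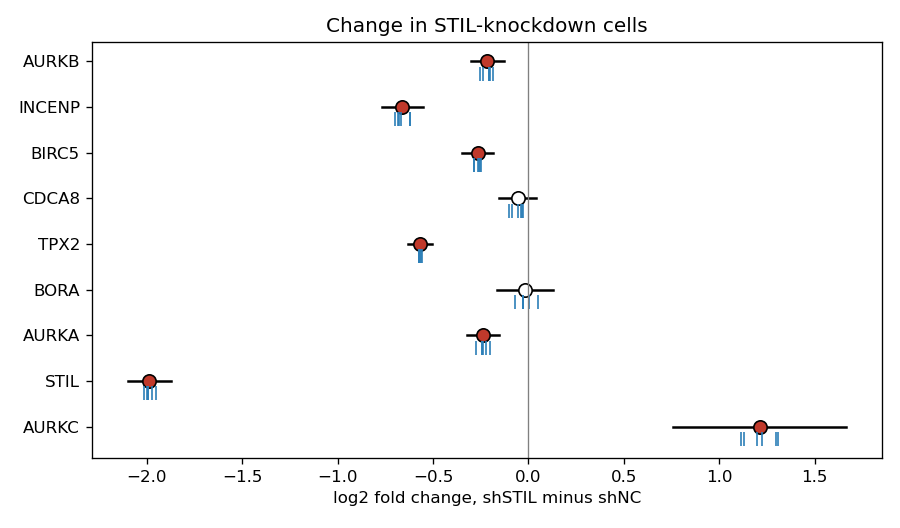
Log2 fold change of shSTIL minus shNC (horizontal axis) for the 6 genes, AURKA, STIL and AURKC, with filled circles for DEGs, open circles for genes that did not pass, black lines for 95% confidence intervals and blue ticks for the fits that leave out 1 library. INCENP and TPX2 lie at -0.66 and -0.57, AURKB and BIRC5 at -0.22 and -0.27, and the intervals of CDCA8 and BORA cross 0.

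The Aurora kinases themselves did not share 1 direction. AURKA, the mitotic kinase activated by TPX2 and Bora, was at 7.30, 7.22 and 7.36 log2 CPM in the controls and at 7.07, 7.03 and 7.07 in shSTIL. It fell by 0.24 on the log2 scale (SE 0.04, limma adjusted p = 0.000119), and its call was lost in 4 of the 6 fits that leave out 1 library (limma adjusted p up to 0.0149). AURKC, the kinase best known from meiosis and able to take the place of Aurora B in the complex, was covered by 11 to 15 reads in a control library and by 30 to 39 in a shSTIL library. It rose by 1.21 on the log2 scale (SE 0.21, limma adjusted p = 0.000227), from a level far below that of the other kinases.

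To compare levels between genes, reads were divided by the length of the principal transcript and by the normalised library size, giving RPKM, a level per transcript length and depth. In the controls the order was TPX2 (163 ± 1.21, mean ± SD, n = 3), AURKB (115 ± 5.72), AURKA (69.8 ± 3.36), BIRC5 (35.7 ± 0.842), CDCA8 (30.2 ± 1.57), INCENP (25.1 ± 1.27), BORA (9.01 ± 0.781) and AURKC (0.648 ± 0.0941). No 2 neighbours in this order overlapped among the control libraries. In shSTIL the order of the means was the same, with TPX2 at 110 ± 1.39, AURKB at 98.7 ± 2.56, AURKA at 59.2 ± 0.864, BIRC5 at 29.6 ± 0.701, CDCA8 at 29.05 ± 1.03, INCENP at 15.8 ± 0.851, BORA at 8.87 ± 0.234 and AURKC at 1.63 ± 0.216. The one pair of neighbours whose ranges met was BIRC5 (28.98 to 30.37) and CDCA8 (28.09 to 30.13). Per length, the mRNA of the kinase was thus the most abundant of the 4 subunits, and the scaffold the least abundant, in both groups. These levels rest on 1 transcript per gene, and a gene that uses shorter or longer transcripts in EJ cells would be placed differently.

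**Figure D3:**
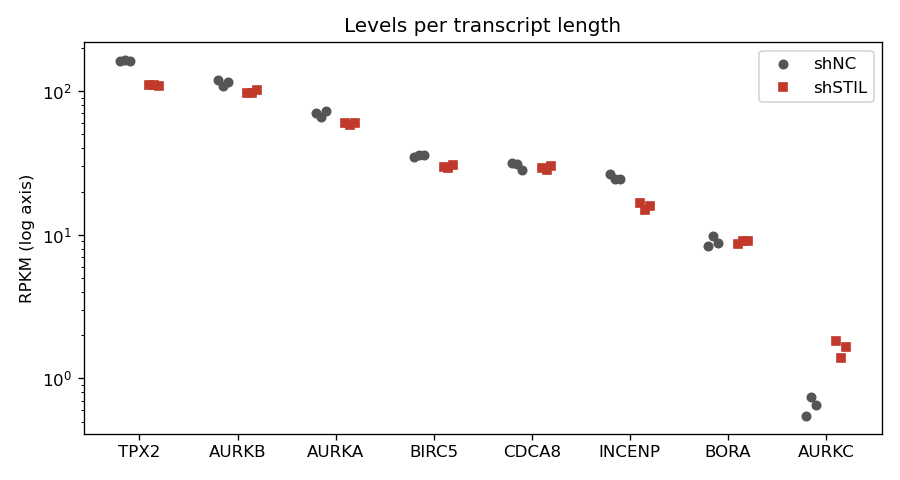
RPKM (vertical log axis) in each shNC library (grey circles) and shSTIL library (red squares) for the 6 genes, AURKA and AURKC, ordered by the control mean. TPX2 and AURKB lead in both groups, and BIRC5 and CDCA8 meet in shSTIL at means of 29.6 and 29.05.

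The members were then compared with each other inside each library, which removes the library size from the comparison. For each of the 15 pairs the log2 ratio of the genes was taken per library and compared between the groups. In 11 of the 15 pairs the ratios did not overlap between shNC and shSTIL. Among all 49426653 pairs of the 9943 genes whose log2 CPM averaged 3 or more, the ratios of 77.7% did not overlap, so that the share in the members was near that background. None of the 15 passed an exact two-sided permutation test adjusted over the 15 pairs (smallest adjusted p = 0.136, at the smallest possible permutation p of 0.1).

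The ratio of INCENP to its partner in the targeting module, CDCA8, was 0.34, 0.23 and 0.36 on the log2 scale in the controls and -0.21, -0.33 and -0.33 in shSTIL. The ratio changed by -0.60 (SE 0.06). It is not corrected for transcript length, so its sign does not tell which of the genes had more mRNA. Per length, CDCA8 was above INCENP in both groups, as given above. The ratio of AURKB to INCENP, kinase to scaffold, was 0.58, 0.57 and 0.66 in the controls and 0.96, 1.10 and 1.08 in shSTIL, a change of 0.45 (SE 0.05). The kinase transcript therefore lost less than the scaffold transcript in the same libraries. In the same way, the log2 ratio of TPX2 to BORA changed by -0.55 (SE 0.07) and that of CDCA8 to TPX2 by 0.51 (SE 0.06).

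For 4 pairs the ratios overlapped between the groups. The changes of the log2 ratio were 0.05 (SE 0.06) for AURKB to BIRC5, -0.09 (SE 0.07) for INCENP to TPX2, -0.04 (SE 0.09) for CDCA8 to BORA and -0.20 (SE 0.12) for AURKB to BORA. Against AURKA, 3 of the 6 members had ratios without overlap, where 64.8% of all other genes did. INCENP and TPX2 changed by -0.42 (SE 0.06) and -0.33 (SE 0.05) relative to AURKA, and CDCA8 by 0.18 (SE 0.08). AURKB (0.02, SE 0.04), BIRC5 (-0.03, SE 0.05) and BORA (0.22, SE 0.11) overlapped with the controls in their ratio to AURKA. The smallest p of this family of 6, adjusted, was 0.2 by the exact permutation test.

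**Figure D4:**
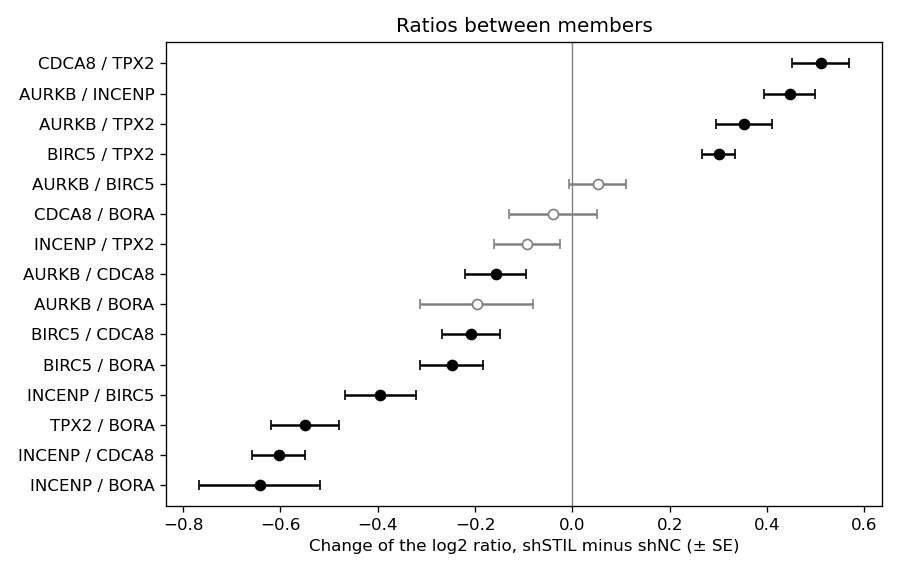
Change of the log2 ratio of 2 members between shSTIL and shNC (horizontal axis, with the SE as bars) for all 15 pairs, filled where the 3 shNC and 3 shSTIL ratios do not overlap and open where they do. The ratios of INCENP to BORA, CDCA8 and BIRC5 and of TPX2 to BORA lie to the left, and those of CDCA8, AURKB and BIRC5 to TPX2 and of AURKB to INCENP lie to the right.

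Genes that surround the complex were described by lists, with the count of DEGs in each direction and the median log2 fold change. Over all genes that median was 0.0052, and 23.6% were DEGs that fell and 23.5% DEGs that rose. Among 17 genes for the recruitment and turnover of the complex, 10 fell, 3 rose and 4 did not pass, with a median of -0.17. HASPIN, the kinase that writes the histone mark read by survivin, fell by 0.84 (SE 0.09, limma adjusted p = 2.68e-06). BUB1, the kinase that writes the other centromeric mark for the complex, fell by 0.52 (limma adjusted p = 3.53e-08), whereas SGO1, a shugoshin that binds this second mark, differed by -0.08 (limma adjusted p = 0.296). Of the ubiquitin ligase adaptors that take Aurora B off chromosomes, KLHL13 fell by 0.81 (limma adjusted p = 0.000114), KLHL9 rose by 0.38 (limma adjusted p = 1.64e-05) and KLHL21 differed by 0.20 (limma adjusted p = 0.0184). The call of KLHL13 was lost in 3 of the 6 fits that leave out 1 library. The heterochromatin protein genes CBX1 and CBX3 fell by 0.44 and 0.36 while CBX5 rose by 0.32, each with a limma adjusted p under 0.01.

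Among 17 substrates of Aurora B and genes of the central spindle, 15 fell, 1 rose and 1 did not pass, with a median of -0.52. KIF20A, the kinesin that carries the complex to the central spindle, fell by 0.94 on the log2 scale (SE 0.03, limma adjusted p = 6.26e-11), and its reads went from 2743 to 2789 per control library to 1523 to 1554 per shSTIL library. MKI67, which encodes the surfactant of mitotic chromosomes, fell by 0.94 as well (SE 0.04, limma adjusted p = 8.03e-10). The kinetochore genes DSN1, KNL1 and NDC80, whose proteins Aurora B phosphorylates to release wrong attachments, fell by 0.90, 0.66 and 0.55. The gene that rose was CHMP4C, the abscission checkpoint protein regulated by Aurora B (0.63, SE 0.06, limma adjusted p = 5.17e-07), and the one that did not pass was ECT2 (0.10, limma adjusted p = 0.0618). This list of substrates and central spindle genes had a larger fall at its median than AURKB itself at -0.22, a difference that was not tested.

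Of the 19 partners of Aurora A and genes of spindle assembly, AURKA among them, 13 fell, 2 rose and 4 did not pass, with a median of -0.27. NUSAP1, a microtubule bundling protein, fell by 1.28 on the log2 scale (SE 0.03, limma adjusted p = 5.69e-12) and HAUS1, a subunit of the augmin complex, by 0.95 (SE 0.06, limma adjusted p = 2.39e-08). The importin genes KPNA2 and KPNB1, whose proteins hold TPX2 inactive, fell by 0.44 and 0.27, and RAN, whose active form releases TPX2, fell by 0.29. RCC1, the exchange factor that loads RAN, rose by 0.69 (SE 0.04, limma adjusted p = 2.54e-09), and AJUBA, another activator of Aurora A, rose by 0.53 (SE 0.04, limma adjusted p = 1.39e-07).

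In the list of PLK1 and mitotic entry, into which Bora feeds, 12 of 14 genes fell, 1 rose and 1 did not pass, with a median of -0.43. PLK1 fell by 0.24 (limma adjusted p = 6.62e-05), CCNA2 by 0.92 (SE 0.04) and CCNF by 0.91 (SE 0.05), while BORA, as given above, differed by -0.02. BTRC, an F-box protein that recognises phosphorylated Bora for degradation, rose by 0.43 on the log2 scale (SE 0.05, limma adjusted p = 5.44e-06), and its relative FBXW11 fell by 0.36 (limma adjusted p = 9.83e-06). WEE1 did not pass (0.08, limma adjusted p = 0.187).

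The phosphatase genes that oppose the Aurora kinases went both ways. Of 15, 8 rose, 5 fell and 2 did not pass, with a median of 0.17. PPP1CA, a catalytic subunit of protein phosphatase 1, fell by 0.98 on the log2 scale (SE 0.05, limma adjusted p = 2.64e-09), while its paralog PPP1CC rose by 0.25 (limma adjusted p = 0.000127). PPP1R7, a regulator of the same phosphatase, fell by 0.36 (SE 0.05, limma adjusted p = 3e-05), a call lost in 2 of the 6 fits that leave out 1 library. PPP6C, the catalytic subunit of the phosphatase that dephosphorylates Aurora A bound to TPX2, rose by 0.30 (SE 0.04, limma adjusted p = 3.06e-05). PPP2R5B, a regulatory subunit of protein phosphatase 2A, rose by 0.66 (SE 0.07, limma adjusted p = 2.9e-06).

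BIRC5 can also be set beside the inhibitor of apoptosis family to which it belongs by its BIR domain. Of the 9 listed genes, DIABLO (an antagonist of the family) included, 8 were measured. BIRC5 was the only one that fell, 4 rose and 3 did not pass, and the median was 0.25, or 0.28 without BIRC5. The median of these 8 genes was 0.14 without shSTIL replicate 3, reached 0.36 in the other fits that leave out 1 library, and was 0.16 at a pseudocount of 1 CPM. BIRC3 rose by 1.21 on the log2 scale (SE 0.04, limma adjusted p = 8.86e-11), from between 3274 and 3804 in the controls to between 8302 and 8658 in shSTIL. BIRC2 rose by 0.96 (SE 0.05, limma adjusted p = 2.32e-09). XIAP (0.28, limma adjusted p = 2.57e-05) and BIRC6 (0.39, limma adjusted p = 7.42e-06) rose as well.

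Within the 54 genes of a general G2/M phase list, which holds AURKB, BIRC5, CDCA8 and TPX2, 39 fell, 3 rose and 12 did not pass, with a median of -0.34. Without those members the list had 36 falls and 3 rises among 50 genes, and a median of -0.43. DLGAP5, a spindle protein, fell by 1.15 (SE 0.05, limma adjusted p = 3.32e-10), next to NUSAP1, and RANGAP1, the activator of RAN's GTPase, rose by 0.58 (SE 0.03, limma adjusted p = 1.81e-09). AURKB and BIRC5 thus had smaller falls than the median of these genes, TPX2 a larger one, and CDCA8 was among the 12 that did not pass, together with CKS2, CKAP5, ECT2 and CENPE. Many of these genes are also in the lists above, so the lists are not separate evidence.

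**Figure D5:**
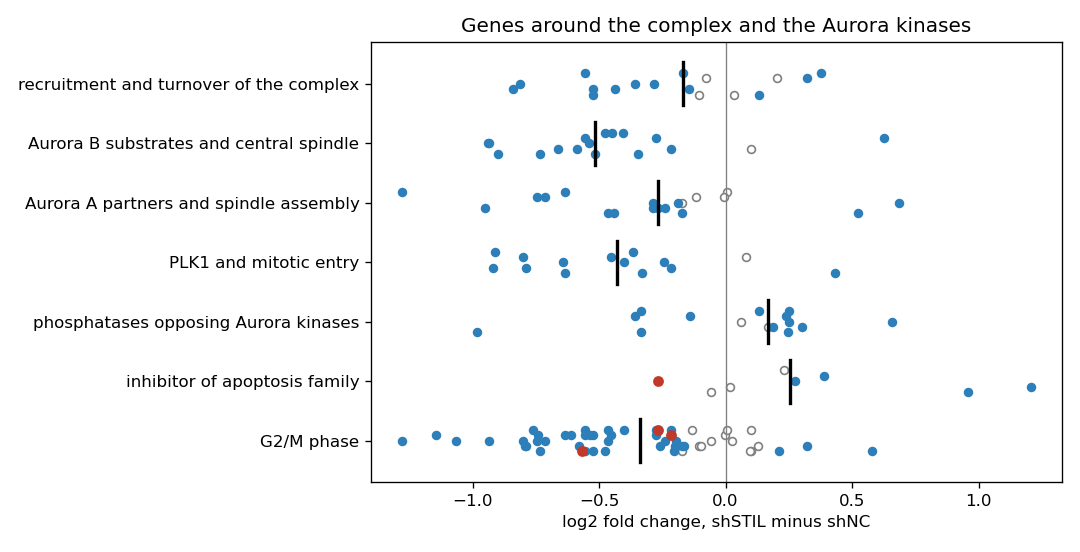
Log2 fold change of shSTIL minus shNC (horizontal axis) for each measured gene of 7 lists, with DEGs as filled blue points, members that were DEGs in red, genes that did not pass as open points and the median of each list as a black bar. Medians lie to the left of 0, at -0.17 to -0.52, in the 5 lists of mitotic genes and to the right, at 0.17 and 0.25, for phosphatases and the inhibitor of apoptosis family, the latter at 0.14 without shSTIL replicate 3.

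For each member, the 3 genes with the nearest profile were sought among genes averaging 3 or more log2 CPM, by the root mean square difference of the log2 CPM relative to the control mean over the 6 libraries. For AURKB they were MRGBP (0.014), TRAPPC1 (0.016) and LDB1 (0.017). For INCENP they were ANG (0.023), PRICKLE3 (0.035) and APEX2 (0.036), and for BIRC5 they were PSPC1 (0.0098), NONO (0.014) and MFN1 (0.015). TPX2 was followed most nearly by IDH1 (0.015), MRPS6 (0.017) and HNRNPU (0.018). CDCA8 had POLDIP3 (0.021), SCAMP4 (0.027) and MAML1 (0.028) beside it, and BORA had AZIN2 (0.026), TRIM37 (0.027) and ZBTB5 (0.028). None of the 18 is itself in the lists of the complex, the Aurora kinases or the G2/M phase. With 6 libraries in 2 groups, nearness mostly reflects a like fold change.

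The study also lists 3 siRNAs against STIL, and which of them, if any, matches the hairpin of these libraries is not stated. The 7-base words that pair with bases 2 to 8 of their antisense strands were looked for in the 3′ UTRs of 1 transcript per gene (GENCODE 29, 15276 genes). TACATAT, the word of the first, occurred in 15.1% of the genes, TGGATTA, that of the second, in 9.73%, and TTCCACA, that of the third, in 13.5%. Among the 6 members, TTCCACA occurred in BIRC5, and none of the 3 words was found in the 3′ UTR used for the other 5 genes. BIRC5 had the longest 3′ UTR of the members (2082 bases, against 1353 in CDCA8 and 98 in AURKB). The 8-base words, each with an A added at the end, were found in no member. A match of the letters is a description only.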

How the data were processed

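RNA-seq of 6 EJ libraries was used, 3 shNC and 3 shSTIL, grouped by the genotype given in the labels. The authors filtered reads from a BGISEQ-500 with SOAPnuke and estimated reads per gene with Bowtie2 and RSEM, and the submitters' processing notes name Bowtie2, RSEM, limma and hg38, without versions. The deposited log2 CPM values of 15953 genes, which the authors derived with edgeR and a normalised library size, were present for all 6 libraries. The deposited estimated counts of 15957 genes from RSEM, not normalised, were present for 4 libraries and served as a check: the reads that the log2 CPM imply departed from them by at most 0.0142 reads. Because RSEM splits ambiguous reads among like transcripts, paralogs such as the Aurora kinases have uncertain values where their sequences match.

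Groups were compared over all genes in R 4.3.3 by limma 3.58.1, using lmFit and eBayes (variance trended on the mean). The fit had no replicate block and used Benjamini-Hochberg adjustment. Genes counted as DEGs below an adjusted p of 0.01, which the study also used. The study itself reported more DEGs than were found here, so the sets are not the same. As alternatives, DESeq2 1.42.0 and the quasi-likelihood test of edgeR 4.0.16 were applied to the recovered reads, of which 87.1% to 87.4% were whole within 0.005, after rounding, along with other scalings, filters and thresholds. Single values were compared by exact two-sided permutation over 20 labellings. The depth was 16214771 to 16901633 reads.

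Genes named are the 6 members, STIL, AURKA and AURKC, the 2 lowest and 2 highest called genes of each list and the 3 nearest profiles of each member. DIS3, marker genes and other list genes, chosen after their values were seen, are named for their overlap or role. The members and lists were chosen with earlier results of these data known. Positions, exons and 3′ UTRs are from GENCODE 29 on GRCh38, promoters from RefSeq.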

Additional observations from a re-analysis of the deposited data

How the results depend on the processing

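INCENP, BIRC5 and TPX2 kept their direction and their call in all 15 alternatives, with log2 fold changes of -0.70 to -0.62, -0.29 to -0.22 and -0.57 to -0.52. AURKB kept its direction in all 15 but lost its call in 6, at -0.215 without a mean-variance trend and in 5 of the 6 fits that leave out 1 library, which gave -0.2547 to -0.1837. CDCA8 passed in none of the 15 (-0.10 to -0.01). Members among the DEGs numbered 4, or 3 where AURKB was lost. DEGs numbered 7509, and 4900 (without shSTIL replicate 3) to 5638 (without shNC replicate 2) when 1 library was left out. With edgeR they numbered 7828, with DESeq2 6781 and with no trend 5855. The median of the inhibitor of apoptosis list (0.25) was 0.1376 without shSTIL replicate 3.

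Signs turned only for differences that passed no test: under median centring, which moved the median of all genes to 0.048, for BORA (0.0244) and its neighbours and that of CDCA8, SCAMP4 (0.0086), AZIN2 (0.0211), TRIM37 (0.022) and ZBTB5 (0.0163), and under quantile normalization for AZIN2 (0.0486). Leaving out 1 library gave -0.0728 to 0.0484 for BORA, -0.0692 to 0.0345 for AZIN2, -0.0582 to 0.0263 for TRIM37 and -0.0708 to 0.0143 for ZBTB5. The cause was not tested.

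The replicate numbers did not pair the samples (correlations of same-numbered deviations -0.12, -0.055 and -0.11). With the replicate block there were 6898 DEGs, 4 of them members. Differences the size of that of CDCA8 (SE 0.05) are not resolved at this replication.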
